A study of Bos taurus with 4 samples.

Results

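The 100 genes that took the largest share of the nonmitochondrial transcripts of bovine longissimus dorsi, the long muscle of the back, were examined in 4 Angus steers. They were selected on the deposited values themselves: the 13 mitochondrial genes were dropped, each library was divided by its remaining total, and the 100 genes with the highest mean share over the 4 libraries were taken out of 24616 listed genes. The order of these genes and their levels are therefore a description and carry no test. The steers were Aberdeen Angus from the Wye Angus herd, a closed herd, and all had the same diet until weaning. They were then assigned at random to 1 of 2 diets, with 2 steers on each. Grain-fed steers received corn silage, shelled corn, soybean and trace minerals. Grass-fed steers grazed alfalfa, had bailage in winter and received no grain. The grass-fed animals took longer to reach slaughter weight, so diet and age at slaughter cannot be told apart here. The libraries are numbered as the deposited columns are, which give a diet but no steer.

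Skeletal muscle devotes much of its messenger RNA to a small set of proteins. The contractile apparatus (actin, myosin heavy and light chains, troponins, tropomyosins and titin), the enzymes of glycolysis, creatine kinase, the calcium pump of the sarcoplasmic reticulum and myoglobin are the classes known to lead such lists. Fast and slow fibres use different members of many of these families. The deposited rows carry Ensembl identifiers and the reference used here does not pair them with gene names, so the genes below are given by identifier, no function is assigned to any of them, and the muscle label could not be checked against marker genes. Transcript lengths were not used either. A share is a share of reads, and a long transcript gives more reads than a short one at the same number of molecules, so ranks do not order the genes by molecules.

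Between 5683894 and 7447453 reads per library were recovered from the deposited values, and the 13 mitochondrial genes took 36.1% and 38.3% of them on grain, against 21.7% and 23.3% on grass. This difference moves with diet and enters a scaling by the total of all genes, but not one by the nonmitochondrial total, and values on both are given below. A member had between 1104 and 366058 reads in a library, with a median of 12304, so that the counting error of a single value was at most 3.01%. In whole muscle, fewer cells of a type and less RNA per cell cannot be told apart.

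The 100 genes held 57.9% and 66.8% of the nonmitochondrial total on grain (libraries 1 and 2) and 61.5% and 60.5% on grass, a mean of 61.7% ± 3.74 (SD, n = 4). The grain-fed libraries were the lowest and the highest of the 4, and the grass-fed libraries lay between them. When the mitochondrial genes were kept in the total, the same genes held 37.0% and 41.2% on grain and 48.2% and 46.4% on grass, and the diets no longer overlapped. The concentration was strongest at the top of the list. The first 10 genes alone held 23.8% and 29.5% of the nonmitochondrial total on grain and 26.5% and 27.0% on grass, whereas ranks 51 to 100 together held between 7.66% and 8.69% in any library. In grain-fed library 2, 27 genes were enough to reach 50% of the total, against 49 in grain-fed library 1 and 40 and 43 on grass.

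**Figure D1:**
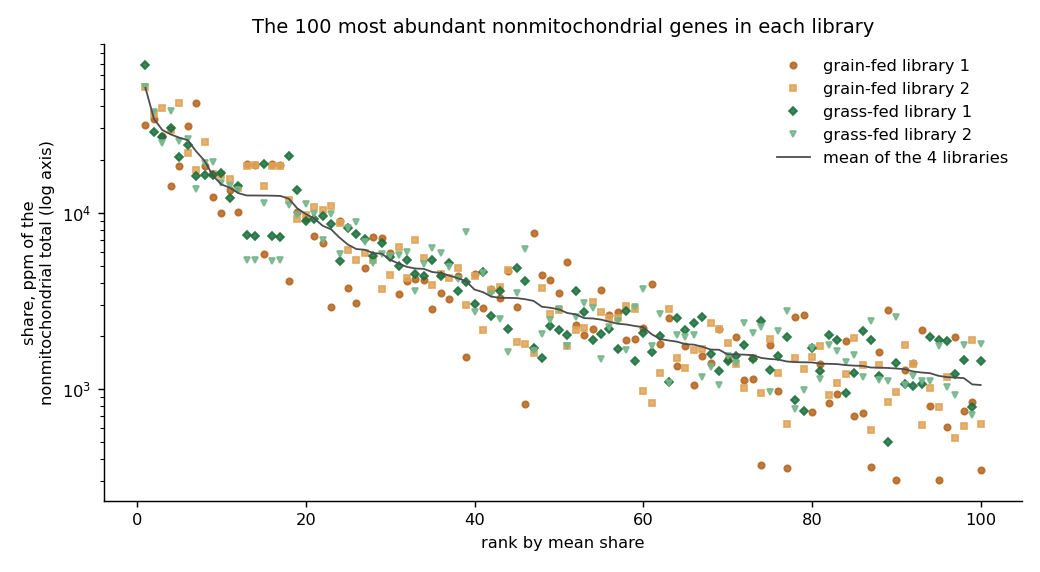
Share of each of the 100 genes, in ppm of the nonmitochondrial total on a log axis, against its rank by mean share; each symbol is 1 library and the line is the mean of the 4 libraries. Mean shares run from 50929 ppm at the left to 1051 ppm at rank 100, and the lowest points at the right are mostly those of grain-fed library 1.

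The gene in first place, ENSBTAG00000046332, had shares of 31467 and 51547 parts per 1000000 (ppm) of the nonmitochondrial total in the pair fed grain, and of 68957 and 51746 ppm in the pair fed grass. Grain-fed library 1 was the low one, and grain-fed library 2 was within 1% of grass-fed library 2. The next, ENSBTAG00000012927, was among the steadiest, with 33778 and 36391 ppm on grain and 28606 and 37405 ppm on grass. ENSBTAG00000022158 had 27093 and 39032 ppm on grain and 26713 and 24723 ppm on grass. ENSBTAG00000011424 varied more, with 14126 and 29258 ppm on grain and 30155 and 37454 ppm on grass. In ENSBTAG00000010880 the order of the grain-fed libraries was the same, with 18350 and 41963 ppm, and the grass-fed libraries had 20775 and 25379 ppm. Grain-fed library 1 was thus the lowest library for 3 of these 5 leading genes. The gene in seventh place, ENSBTAG00000005353, showed the opposite, with 41882 ppm in grain-fed library 1 against 17379 in grain-fed library 2 and 16145 and 13626 on grass. The steadiest member was ENSBTAG00000019782 at rank 56, with 2627, 2526, 2194 and 2256 ppm in the same order, and it was the only member whose 4 libraries lay within 1.2-fold of each other. In 12 members the highest library exceeded the lowest by 4-fold or more, a count that was not made for the other genes.

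At the lower edge, the members of rank 99 and 100, ENSBTAG00000002046 and ENSBTAG00000011869, had mean shares of 1060 and 1051 ppm. The first genes outside, ENSBTAG00000017246 and ENSBTAG00000014956, had 1038 and 1007 ppm, so the edge is not a gap in abundance. The choice of averaging changed few members. With the median in place of the mean share 97 of the 100 genes were the same, with the grain-fed libraries alone 89, and with the grass-fed libraries alone 96. The selection also bears on the diet comparison. There were 7 members outside the first 100 of both grain-fed libraries, which entered the list only through the grass-fed libraries, and all 7 were higher on grass without overlap. Another 3 were outside the first 100 of both grass-fed libraries, and all 3 were lower on grass. The differences of these members follow from how they entered the list and are given as a description. In all, 72 genes were among the first 100 in every library, and 94 of the members were among the first 200 in every library.

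Among the first 20, 4 identifiers behaved as near copies of each other, ENSBTAG00000047046, ENSBTAG00000046351, ENSBTAG00000047154 and ENSBTAG00000045710. They held ranks 13, 14, 16 and 17, and the largest difference of any pair in any library was 1.82%. ENSBTAG00000047154, for example, had 68170 and 74259 reads on grain against 39261 and 30301 reads on grass. Reads that match several similar genes could have been counted for more than 1 of them or divided among them, so their separate values are uncertain, and counts that include them are also given with the 4 counted once. Together they held 7.49% and 7.38% of the nonmitochondrial total on grain and 2.95% and 2.14% on grass.

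A further pair, ENSBTAG00000043570 at rank 24 and ENSBTAG00000043567 at rank 42, carry identifier numbers inside the run of numbers of the 13 mitochondrial genes. Of 38 listed identifiers in that run, 13 were dropped and 25 stayed. Whether these members are nuclear genes could not be checked, so the description as nonmitochondrial rests on the selection alone for them. ENSBTAG00000043570 had 8939 and 8773 ppm on grain and 5290 and 5846 ppm on grass, and the diets did not overlap. ENSBTAG00000043567 had 3686 and 3638 ppm on grain and 2582 and 3436 ppm on grass, and the diets did not overlap either, by a small margin. On the deposited scaling their log2 fold changes were -1.003 (SE 0.34) and -0.63 (SE 0.35), with limma adjusted p-values of 0.523 and 0.621. At equal column totals they were -0.37 and 0.0058, so that the second changed sign.

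The main question of the design was whether the levels differed between diets. For this comparison the deposited values, which already carry the authors' normalization, were set to parts per 1000000 of the mean column total (ppm). The value log2(value + 1) was then fitted with limma to the 10461 genes whose mean reached 1 ppm, and fold changes are grass-fed minus grain-fed on that scale. Of the 100 genes, 0 passed a Benjamini-Hochberg adjusted p-value of 0.1, and of all genes tested 0 passed as well (0%); the smallest adjusted p-value of a member was 0.397. At an unadjusted p-value under 0.05, 7 members were higher on grass, against 4.46% of all genes tested, and 16 were lower on grass (13 with the near copies counted once), against 4.31% of all genes tested. The members that entered the list through 1 diet only made up 6 of the 7 and 2 of the 16. Among the other 90 members 1 was higher and 14 were lower, so the higher count supports no excess among the members. The lower count includes the near copies and was not set against genes of like abundance at this threshold, so it too is a description. The counts changed with the scaling and with the library left out. At equal column totals 30 members were higher, against 13.2% of all genes tested, and 8 lower, against 1.15%. At equal nonmitochondrial totals 15 were higher, against 8.17%, and 11 lower, against 2.2%. With TMM factors computed again 6 were higher, against 2.7%, and 32 lower, against 6.89%. Without grain-fed library 1, 7 were higher, against 10.9%, and 28 lower, against 10.5%. Without grain-fed library 2, 20 were higher, against 11.2%, and 25 lower, against 12.9%. Leaving out grass-fed library 1 gave 3 higher, against 0.674%, and 7 lower, against 1.09%. Leaving out grass-fed library 2 gave 0 higher, against 5.32%, and 1 lower, against 0.636%. Beyond that, the log2 fold change was 1 or more in 8 members and -1 or less in 18 (15 with the near copies counted once), and 46 lay within 0.5 of 0.

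Counted with the 10 members that entered through 1 diet only (7 higher and 3 lower on grass), the diets were also compared by overlap. In 16 members the lower value on grass exceeded the higher value on grain, where 24.9% of all genes tested did so. The reverse held in 42 members, where 18.2% of all genes tested did so, and the diets overlapped in the other 42. With the near copies counted once these counts were 16 and 39 of 97, and without the pair in the mitochondrial number run they were 16 and 40 of 98. With 1 library left in a diet, the counts rose among the members and among all genes tested. Without grain-fed library 1 they became 23 and 64, against 44.2% and 36.6% of all genes tested. Without grain-fed library 2 they became 41 and 46, against 45.1% and 35.8%. Without grass-fed library 1 they became 23 and 47, against 33.2% and 27.8%, and without grass-fed library 2 they became 25 and 47, against 34.2% and 27.2%. The median log2 fold change of the members was -0.27, against 0.11 for all genes tested. Without grain-fed library 1 these medians were -0.41 and 0.15, and without grain-fed library 2 they were -0.04 and 0.21. For a single gene, exact permutation of the 4 libraries has 0.333 as its smallest two-sided p-value.

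The direction of the members as a group depended on the scaling. When every column was set to an equal nonmitochondrial total, 31 members did not overlap and were higher on grass, where 33.9% of all genes tested were, and 26 were lower, where 11.3% of all genes tested were; the median of the members was 0.06. When every column was set to an equal total, 48 were higher, where 43.2% of all genes tested were, and 14 were lower, where 6.92% of all genes tested were, and the median was 0.37. With TMM factors computed again 10 were higher, where 19% of all genes tested were, and 48 lower, where 24.5% were. With upper-quartile scaling 10 were higher, where 18.1% of all genes tested were, and 52 lower, where 24.7% were. The median of the members was -0.53 and -0.56 under these scalings. The median of all genes tested moved too, to 0.41 at equal nonmitochondrial totals and 0.67 at equal column totals. The median of the members minus that of all genes tested was between -0.42 and -0.30 under the 5 scalings run. A scaling shifts the fold changes of all genes almost alike, so this narrow range was set in advance. The distance was -0.18 when the filter was raised to a mean of 5 ppm. It was -0.25 without grain-fed library 2 or without grass-fed library 1, and -0.56 without grain-fed library 1. In edgeR's likelihood ratio test and in DESeq2, both described below, it was -0.68. Of the single members, 30 were higher on grass and 30 lower on grass (27 with the near copies counted once) under all 5 scalings, and the sign of the other 40 turned with the scaling. Under the deposited, total and nonmitochondrial scalings together, 16 members were higher on grass without overlap, against 24.9% of all genes tested. Another 14 were lower (11 with the near copies counted once), against 7.22% of all genes tested. Both rescalings only raised grass against grain. The 16 therefore repeats the deposited count and the 14 the equal-total count, and neither adds support. TMM and upper-quartile scaling moved the values the other way and left 10 higher each.

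**Figure D2:**
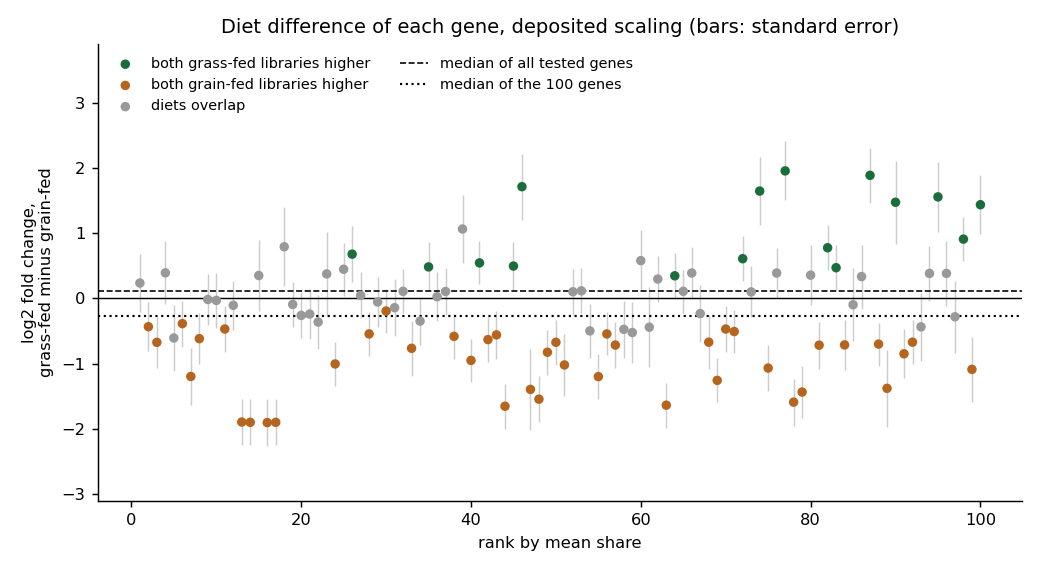
Log2 fold change (grass-fed minus grain-fed, deposited scaling) of each of the 100 genes against its rank by mean share, with the standard error of the limma fit as bars; colours mark whether the diets overlap, and lines mark 0 and the medians of the members and of all tested genes. The 4 near copies lie together near -1.90 at ranks 13 to 17. Of the 8 members with a value of 1 or more, 5 entered the list only through the grass-fed libraries.

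The 2 non-overlapping members with the largest difference toward grass were ENSBTAG00000001003 and ENSBTAG00000007782, at ranks 77 and 87. Both entered the list only through the grass-fed libraries: ENSBTAG00000001003 was at rank 288 and 129 on grain and 65 and 49 on grass, and ENSBTAG00000007782 at rank 280 and 143 on grain and 66 and 56 on grass. Their differences are therefore a description, with no test. ENSBTAG00000001003 had 251 and 524 ppm of the mean column total on grain and 1177 and 1691 on grass. Its log2 fold change was 1.96 (SE 0.45), and it lay between 1.67 and 2.59 over the scalings. ENSBTAG00000007782 had 255 and 484 ppm on grain and 1140 and 1488 on grass. The log2 fold change was 1.89 (SE 0.42). In both genes grain-fed library 1 was the lowest and grass-fed library 2 the highest, and the lower grass-fed library had more than 2-fold the value of the higher grain-fed library.

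Toward grain, the 4 near copies had the most negative differences of all members. ENSBTAG00000047154 had 13206 and 15201 ppm of the mean column total on grain and 4435 and 3241 on grass. The log2 fold change was -1.90 (SE 0.36) with a limma adjusted p-value of 0.397. Leaving out each library in turn gave values from -2.13 to -1.68. The next member, ENSBTAG00000030124 at rank 44, had 3269 and 3878 ppm on grain and 1302 and 986 on grass. Here the log2 fold change was -1.65 (SE 0.35) with a limma adjusted p-value of 0.413. The grain-fed libraries were close to each other in both genes, and the diets were well apart. At equal column totals, the value of ENSBTAG00000047154 was -1.27 and that of ENSBTAG00000030124 was -1.02.

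**Figure D3:**
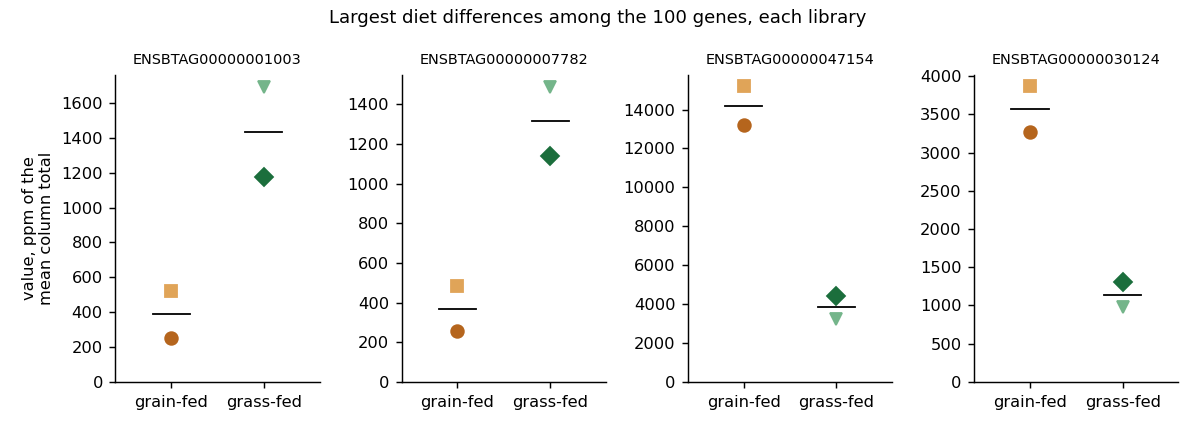
Values in ppm of the mean column total (linear axes that start at 0) of the members with the largest non-overlapping differences, ENSBTAG00000001003 and ENSBTAG00000007782 toward grass, and ENSBTAG00000047154, one of 4 near copies, and ENSBTAG00000030124 toward grain; each symbol is 1 library (grain-fed library 1 circle, grain-fed library 2 square, grass-fed library 1 diamond, grass-fed library 2 triangle) and the bar is the mean of 2 libraries. No panel shows an overlap of the diets.

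Tests for counts, run on the recovered whole reads, called different numbers. The quasi-likelihood test of edgeR called 0 genes and 0 members at an adjusted p-value of 0.1. Its likelihood ratio test, run with TMM factors on all genes with a read, called 4 members, against 1.05% of all genes tested, and the 4 were the near copies, all lower on grass, so that it called 1 with the copies counted once. DESeq2 called 12 members, against 3.25% of the 9025 genes to which it gave an adjusted p-value. With the near copies counted once it called 9. Of the 12, 10 were lower on grass, the near copies included, and 2 were higher, ENSBTAG00000001003 and ENSBTAG00000007782. Both of the latter, and 2 of the 10 lower ones, entered the list through 1 diet only, so their calls carry no weight; the other 8 were all lower on grass, 4 of them the near copies. Among the 100 genes that come next in abundance, down to rank 200, DESeq2 called 14, and at ranks 201 to 500 it called 22 of 300, so its calls were not less frequent in the 100 genes after the list than in it.

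The members were also set beside less abundant genes in the diet comparison. The median log2 fold change on the deposited scaling was -0.37 for the 100 genes after the list, down to rank 200, -0.28 at ranks 201 to 500 and -0.30 at ranks 501 to 1000, next to -0.27 for the members. It was -0.19 at ranks 1001 to 2000, -0.03 at ranks 2001 to 5000 and 0.40 for the tested genes from rank 5001 on. The share of genes with both grass-fed libraries below both grain-fed libraries was 43% in the 100 genes after the list and 10.8% from rank 5001 on. The distance of the members from the median of all genes tested was therefore matched by the other abundant genes and was not particular to the 100.

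**Figure D4:**
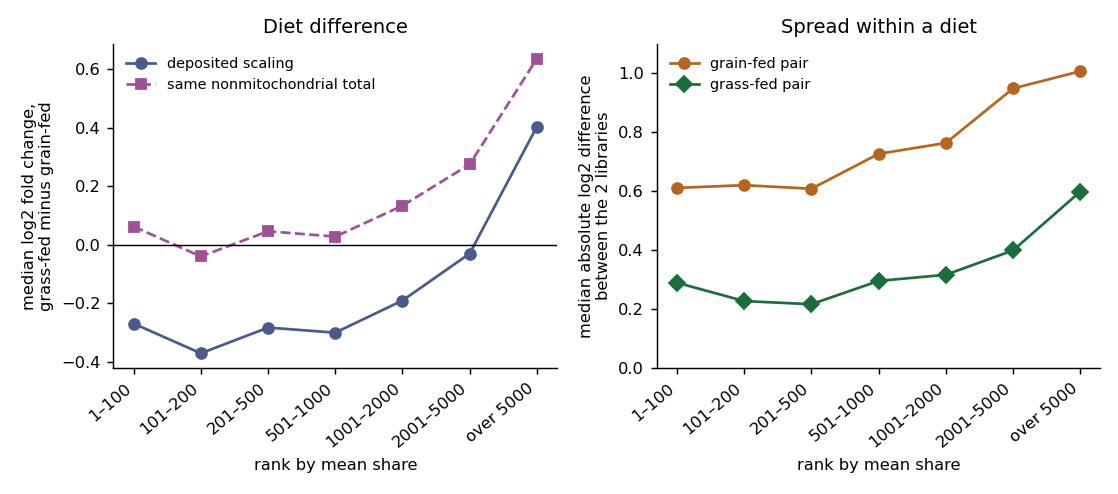
Left, median log2 fold change (grass-fed minus grain-fed) of the tested genes in classes of rank by mean share, for the deposited scaling and for columns set to an equal nonmitochondrial total; right, median absolute log2 difference between the 2 libraries of each diet in the same classes. The first class is the 100 genes, at -0.27 and 0.06 on the left and at 0.61 for grain and 0.29 for grass on the right, and the classes down to rank 1000 lie near it on the left.

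The libraries of the same diet were compared gene by gene to give the spread behind these differences. The absolute log2 difference between the grain-fed libraries had a median of 0.61 over the members and reached 2.14. Between the grass-fed libraries the median was 0.29 and the highest value 1.18. The grain-fed pair differed more than the grass-fed pair in 75 of the 100 members (75 of 97 with the near copies counted once), and in 69.6% of all genes tested. At equal nonmitochondrial totals the grain-fed pair differed more in 65 members, and the share over all genes was not computed there. The shares differed by 2-fold or more in 21 members within grain and in 3 within grass, counts that were not made for the other genes.

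**Figure D5:**
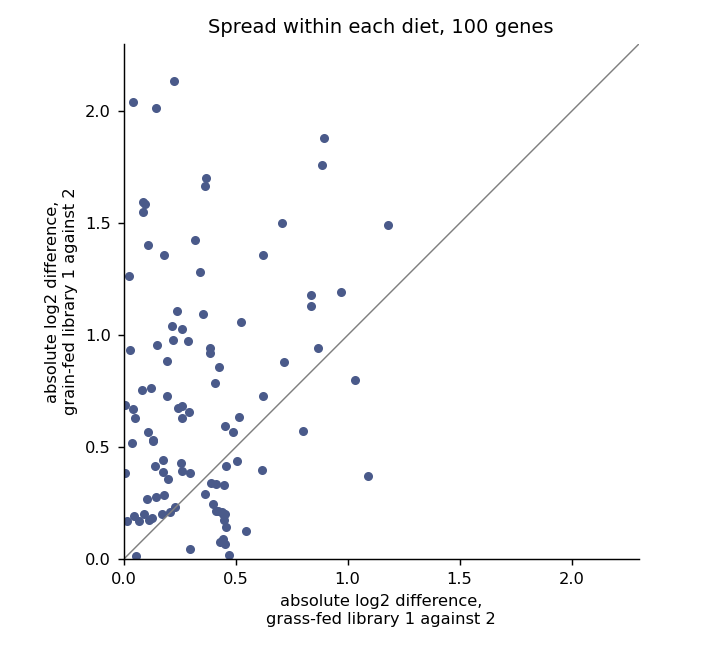
Absolute log2 difference between the grain-fed libraries against that between the grass-fed libraries for each of the 100 genes, on the deposited scaling; the line marks equal differences. In 75 genes the point lies above the line, and all differences over 1.2 are those of the grain-fed pair.

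The 10 members with the largest difference within a diet all differed most in the grain-fed pair, with differences from 1.55 to 2.14, and grain-fed library 1 was the higher one in 4 of them. ENSBTAG00000021218 at rank 23 had 2895 and 10863 ppm of the nonmitochondrial total on grain and 8563 and 9810 on grass, so that grain-fed library 1 alone was low. ENSBTAG00000003476 at rank 47 had 7674 and 1590 ppm on grain and 1715 and 1633 on grass, so that grain-fed library 1 alone was high. ENSBTAG00000014583 at rank 61 had 3955 and 834 ppm on grain and 1617 and 1757 on grass, with the grass-fed libraries between the grain-fed ones.

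Counted over all members, grain-fed library 1 stood at least 1.5-fold above the 3 other libraries in 10 members and at least 1.5-fold below them in 20. The same held for 4 and 6 members in grain-fed library 2, for 5 and 1 in grass-fed library 1, and for 4 and 0 in grass-fed library 2. These counts were not made for the other genes, so they cannot show whether the pattern is particular to the members. As a description over the 100 genes, which share their 4 libraries and are no replicates, Pearson's correlation of the log2 shares was 0.95 within grass and 0.88 within grain. Grain-fed library 2 correlated with the grass-fed libraries at 0.89 and 0.86, and grain-fed library 1 at 0.75 and 0.73. By this description grain-fed library 2 was about as close to the grass-fed libraries as to the other library of its own diet.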

How the data were processed

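RNA-Seq of longissimus dorsi muscle was made from 2 grass-fed and 2 grain-fed steers, and replicates are separate animals. Alignment by the authors used Bowtie and UMD3.1, reads were counted per gene with GenomicRanges and analysed in edgeR, and versions were not given in the sources used here. What the authors deposited is a signal, edgeR pseudo-counts adjusted to a common library size. Inverting the adjustment for each diet separately (fitted dispersion 0.605 in both) gave whole reads, at a relative tolerance of 1e-05, for 100% of the genes that had any.

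The 100 genes and the lists were chosen with earlier results of these data known. The 13 mitochondrial genes were dropped before shares were computed; another gene that the selection leaves out was at rank 156 and would not have entered. Diets were compared with limma 3.58.1 (trend, pseudocount 1 and filter at a mean of 1 per 1000000, Benjamini-Hochberg adjusted p-value under 0.1), edgeR 4.0.16 and DESeq2 1.42.0 in R 4.3.3, and the tests were tried on simulated data. The planned count tests needed whole numbers, which the deposited values are not. Alternatives were other scalings, filters, pseudocounts and limma options, 0.05 as the threshold, and leaving out each library. Counting the near copies once (tolerance 3%) and leaving out the pair in the mitochondrial number run were chosen after seeing the data. By the planned rule, the genes named are leading genes by share, at most 2 in each direction of diet, the genes least alike within a diet and those at the edge; the near copies, the pair in the number run and the steadiest gene were added after their values were seen. Planned lists of fibre-type, glycolytic and cell-type genes need gene names and are not analysed here.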

Additional observations from a re-analysis of the deposited data

How the results depend on the processing

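No paired analysis was possible because the steer numbers in the labels are not shared by the diets and the columns carry no steer. In the limma settings run (scalings, filters at 1 and 5 per 1000000 and none, pseudocounts 0.5, 1 and 4, trend and robust options, threshold 0.05, each library left out) and in edgeR's quasi-likelihood test, 0 genes and 0 members were called. Where a library was left out, the lone library of its diet was assumed to vary like those of the other diet. The likelihood ratio test of edgeR called 171 genes and 4 members, and DESeq2 called 293 genes and 12 members. Members without overlap that were higher on grass numbered 16 on the deposited scaling, 48 with the same total, 31 with the same nonmitochondrial total, and 10 both with TMM factors computed again and with upper-quartile scaling; those lower on grass numbered 42, 14, 26, 48 and 52. Of all genes tested, 24.9%, 43.2%, 33.9%, 19% and 18.1% were higher and 18.2%, 6.92%, 11.3%, 24.5% and 24.7% lower. Leaving out each library gave between 23 and 41 higher and between 46 and 64 lower, against 33.2% to 45.1% and 27.2% to 36.6% of all genes tested. The median of the members was -0.27, and it turned to 0.37 with the same total and 0.062 with the same nonmitochondrial total, and was -0.53 with TMM factors computed again and -0.56 with upper-quartile scaling; with each library left out it lay between -0.41 and -0.04. Its distance from the median of all genes tested was -0.38, and -0.68 in both the likelihood ratio test and DESeq2; it was -0.18 with the filter at 5 per 1000000, -0.42 without a filter, and between -0.56 and -0.25 with a library left out, and the cause was not tested. The mean share of the 100 genes was 61.7% of the nonmitochondrial total and 43.2% of the total of all genes. The log2 fold change of ENSBTAG00000043567 turned to 0.0058 with the same total; of the 78 other values of the 6 genes followed in the diet comparison, this was the only one to change sign, and 5 passed the threshold in a count test, 2 of them of genes that entered the list only through the grass-fed libraries and so carry no weight. The 100 genes kept 96 to 98 members with each library left out. The counting error of the members' values was at most 3.01%.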
